A study of Triticum aestivum with 14 samples.

Results

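The short arm of wheat chromosome 1B (1BS) was examined together with its homoeologues on chromosomes 1A and 1D. The regions were all accessible chromatin regions (ACRs) on chromosomes 1A, 1B and 1D in 6 lists. Each chromosome was split into a short and a long arm at 213 Mb on 1A, 240 Mb on 1B and 170 Mb on 1D, and an ACR was given to the arm that held its midpoint. The 3 chromosomes carried 107014 of the 892288 ACRs summed over the 6 lists, and 1BS carried 243 of them. The 3 chromosomes thus held 12.0% of all ACRs on 12.7% of the chromosome span, whereas 1BS held 0.0272% of all ACRs.

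Bread wheat is an allohexaploid, and its A, B and D sub-genomes each contribute 1 member to a homoeologous group of chromosomes. Homoeologues descend from a common ancestral chromosome and carry largely the same genes in a similar order, so the short arms 1BS, 1AS and 1DS are counterparts. In wheat chromosomes genes lie more densely towards the ends of the arms, and the stretches around the centromere are rich in repeats. ACRs mark DNA that is not tightly packed on nucleosomes, such as promoters and enhancers in use. The short arms of group 1 are known for seed storage protein and disease resistance genes. The lists give positions only, and no gene is named here.

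The ACRs were called from ATAC-seq, an assay that uses the transposase Tn5 to tag open DNA, on sorted nuclei of the winter wheat cultivar AK58. In a winter wheat, vernalization, a long exposure to cold, enables or speeds up flowering. The vernalized leaf, vernalized axillary bud and vernalized shoot apex were taken after 1 month at 4°C followed by 1 day in the greenhouse. The unvernalized leaf, axillary bud and shoot apex, given without a prefix below, came after 2 weeks of growth. Each of these 6 groups had 2 samples and 1 ACR list, and 2 samples of input DNA were not analysed here. All plants were of 1 cultivar. AK58 is known as a carrier of the wheat-rye translocation 1BL/1RS, in which the short arm of rye chromosome 1R takes the place of 1BS. The reads were aligned to the reference IWGSC RefSeq v1.0 of the cultivar Chinese Spring, which carries the wheat arm 1BS. The labels do not give the karyotype of the plants and no rye sequence was used here, so the part of a translocation in the values below was not tested.

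The lists held 126351 to 175599 ACRs. They carry no read counts, so the depth behind a list is unknown. No group had a second list, so replicate error could not be measured, and the spread given below is that over the 6 lists. The lists share 1 cultivar, 1 reference and 1 described way of calling ACRs. A p-value over them thus says only whether the 6 lists went the same way. The arms and boundaries were also chosen with earlier results of these data known, so no p-value below is independent support. ACRs were built from overlapping bins, yet the lists differed in form. Widths that fit such bins made up 12.9% of all ACRs in shoot apex and 95.6% in vernalized axillary bud. All intervals are 95% intervals and cover counting error only.

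The first question was how the number of ACRs on 1BS compared with that on its homoeologous arms. ACRs were nearly absent from 1BS in every tissue and condition. The arm carried 37 ACRs in vernalized leaf, 36 in leaf, 49 in vernalized axillary bud, 56 in axillary bud, 33 in vernalized shoot apex and 32 in shoot apex. The 1AS arm carried 1290 ACRs in vernalized leaf, 1350 in leaf, 1781 in vernalized axillary bud, 1854 in axillary bud, 1374 in vernalized shoot apex and 1010 in shoot apex. The 1DS arm carried 1656 ACRs in vernalized leaf, 1475 in leaf, 1918 in vernalized axillary bud, 1983 in axillary bud, 1533 in vernalized shoot apex and 1387 in shoot apex. The highest count of 1BS was therefore far below the lowest count of either counterpart, and the groups did not overlap. Counting error on 1BS was wide, with an exact Poisson interval of 21.9 to 45.2 ACRs for the lowest count, in shoot apex, and of 42.3 to 72.7 for the highest, in axillary bud.

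Set against arm length, 1BS had 0.133 to 0.233 ACRs per Mb, against 4.74 to 8.70 on 1AS, 8.16 to 11.7 on 1DS and 8.98 to 12.5 over all 21 chromosomes. The density of 1BS was 40.2-fold lower than that of 1AS (mean log2 ratio −5.33 ± 0.14, SD over 6 lists). It was 58.6-fold lower than that of 1DS (−5.87 ± 0.14). Both ratios were below 1 in 6 of 6 lists, and each gave p = 0.03125 in a two-sided exact sign-flip permutation test, the smallest p that 6 lists allow, and p = 0.0357 after Benjamini-Hochberg adjustment over 8 results. In single lists the density of 1BS was 35.6-fold (shoot apex) to 46.9-fold (vernalized shoot apex) below that of 1AS. Moving all 3 boundaries 10 Mb into the long arm brought the differences down to 21.9-fold from 1AS and 31.1-fold from 1DS, because the first stretch of 1BL then counted as short arm.

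**Figure D1:**
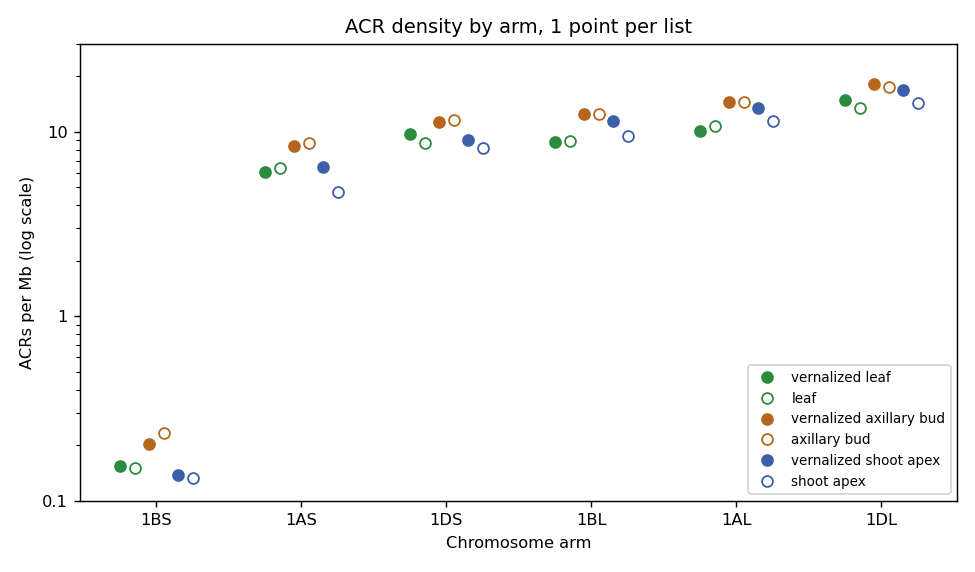
ACRs per Mb (log scale) on the 6 arms of homoeologous group 1, with 1 point per list, filled for vernalized and open for unvernalized tissue. The 6 points of 1BS lie between 0.133 and 0.233, and every point of the other 5 arms lies at 4.74 or above.

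The long arm of 1B did not share the low density. It carried 3950 ACRs in vernalized leaf, 4030 in leaf, 5601 in vernalized axillary bud, 5612 in axillary bud, 5177 in vernalized shoot apex and 4295 in shoot apex. Its density of 8.78 to 12.5 ACRs per Mb was 53.5 to 83.7 times that of 1BS in the same list. On 1A and 1D the long arm was also denser, but by far less, since 1AL had 1.66 to 2.41 times the density of 1AS and 1DL had 1.51 to 1.87 times that of 1DS. Between the long arms the differences were smaller, with 1.15 to 1.20 times the density of 1BL on 1AL and 1.41 to 1.69 times on 1DL. The ratio of short to long arm was 34.2-fold lower on 1B than on 1A (mean log2 difference −5.10 ± 0.14, SD over 6 lists) and 39.0-fold lower on 1B than on 1D (−5.29 ± 0.12). Both held in 6 of 6 lists with an adjusted p of 0.0357 in the same exact test, which has the same limit. The short arm took up 34.8% of the span of 1B and held 0.633% to 0.988% of its ACRs.

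Whole chromosomes showed the same deficit in a weaker form. In group 1 the ACR density of the B chromosome was 0.643 to 0.695 times that of the A chromosome, whereas in homoeologous groups 2 to 7 this ratio ran from 0.870 to 1.26 over 36 values. Against the D chromosome the ratio was 0.441 to 0.534 in group 1 and 0.664 to 0.862 in groups 2 to 7. With the long arms alone, group 1 had a ratio of 0.833 to 0.866 for B over A and of 0.591 to 0.710 for B over D. Leaving out the short arms thus brought group 1 closer to the whole chromosomes of the other groups. No ratio of long arms alone was computed for groups 2 to 7, so unlike parts are set side by side. The range for B over D then overlapped that of groups 2 to 7, while the range for B over A stayed just below it.

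The low level extended along the whole arm. In windows of 10 Mb, the 24 windows of 1BS held 0 to 8 ACRs each, with a median of 1 to 2 by list. Elsewhere in the genome the median of 1373 windows was 62 to 109 ACRs. All 24 windows of 1BS had fewer than 10 ACRs in each list, against 0 to 12 of the 1373 windows elsewhere. Windows with no ACR at all numbered 2 to 7 on 1BS in a list and 0 elsewhere. When each arm was cut into 20 bins of equal relative length, 1BS was below 1AS and below 1DS in 20 of 20 bins in every list, and the smallest difference was 9.77-fold (shoot apex, against 1AS).

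**Figure D2:**
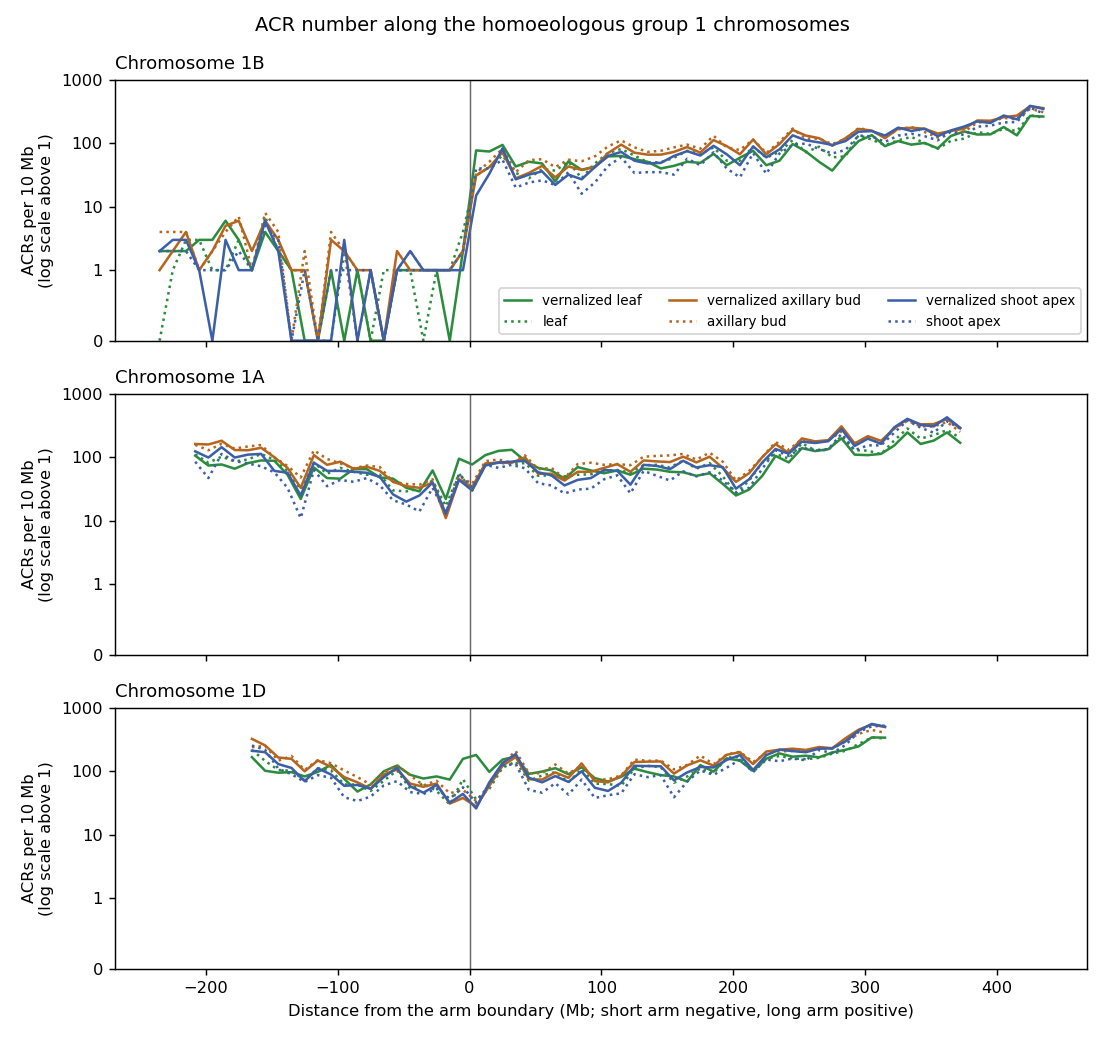
ACRs per 10 Mb window (log scale above 1, linear below) against distance from the arm boundary in Mb, for chromosomes 1B, 1A and 1D, with 1 line per list. The lines of 1B run between 0 and 8 over the whole short arm and step up at the boundary, while 1A and 1D show no such step.

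The end of the arm, where ACRs are dense on other wheat chromosomes, was no exception. The first 50 Mb of 1B held 12 ACRs in vernalized leaf, 8 in leaf, 10 in vernalized axillary bud, 15 in axillary bud, 9 in vernalized shoot apex and 8 in shoot apex. This was the lowest count among the 42 chromosome ends in each of the 6 lists. The next lowest end held 351 to 627 ACRs, and the median of the other ends was 857 to 1368. Ends of 20 Mb and of 100 Mb gave the same rank in each list.

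In windows of 10 Mb, the low level ended at the 240 Mb boundary in every list. The boundary was chosen with earlier results of these data known and was not checked against a centromere position. Its match with the rise is therefore not an independent finding. The last 10 Mb of 1BS held 2 ACRs in vernalized leaf, 4 in leaf, 2 in vernalized axillary bud, 2 in axillary bud, 1 in vernalized shoot apex and 2 in shoot apex. The first 10 Mb of 1BL held 77 ACRs in vernalized leaf, 31 in leaf, 31 in vernalized axillary bud, 34 in axillary bud, 15 in vernalized shoot apex and 40 in shoot apex. In each list the first 10 Mb of 1BL held more ACRs than the last 10 Mb of 1BS, and the counts of the 2 sides did not overlap. On 1A the last 10 Mb of the short arm held 40 to 86 ACRs and the first 10 Mb of the long arm 49 to 111, so both sides overlapped. On 1D the counts were 38 to 157 on the short side and 26 to 181 on the long side, and these also overlapped.

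In windows of 1 Mb, the last window of 1BS held 11 ACRs summed over the 6 lists, the window before it 0 and the first window of 1BL 41. The last window of 1BS and the first of 1BL held 2 and 10 in vernalized leaf, 4 and 7 in leaf, and 1 and 5 in vernalized axillary bud. They held 2 and 7 in axillary bud, 1 and 2 in vernalized shoot apex, and 1 and 10 in shoot apex. At this scale the rise was thus small in some lists. It was also uneven, since the windows from 3 to 4 Mb and from 4 to 5 Mb inside 1BL held 6 and 2 ACRs summed over the 6 lists. The last window of 1BS was occupied in every list, by 1 to 4 ACRs, and 5 of the 99 regions described below lay together there, from 239727220 to 239841095. The window from 1 to 2 Mb inside 1BL differed between lists, with 23 ACRs in vernalized leaf and 3 in leaf, 0 in both axillary bud lists, 0 in vernalized shoot apex and 2 in shoot apex. Within 10 Mb of the boundary of 1B, the vernalized leaf list held the most ACRs on the long side (77) but not on the short side. There it held 2, against 4 in leaf. On 1A and 1D it held the most on both sides.

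Stretches without any ACR were next compared over the whole genome. The 14 longest stretches with no ACR in any of the 6 lists all lay on 1BS. The longest ran for 15.7 Mb from 117711409 to 133413219, the next for 13.7 Mb from 182225358 to 195919004 and the one after for 11.9 Mb from 217633260 to 229539404. The longest elsewhere was 6.57 Mb, on 6B from 268415709 to 274980873. Longest stretches on the counterpart arms were 1.91 Mb on 1AS, from 210105259 to 212016756, and 2.32 Mb on 1DS, from 151432921 to 153751843. Stretches of over 1 Mb numbered 46 on 1BS and together made up 226 Mb, or 94.3% of the arm. On 1AS 11 such stretches made up 15.7 Mb, and on 1DS 3 made up 5.04 Mb. The rest of the genome, with a far greater span than 1BS, held 516.

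The ACRs that remained on 1BS were then followed across lists. Merging ACRs that overlapped by at least 1 bp gave 99 consensus regions on 1BS, or 0.413 per Mb, against 3058 on 1AS (14.4 per Mb) and 3487 on 1DS (20.5 per Mb). The regions of 1BS mostly stood alone. On 1BS 58.6% of regions had no other region within 100 kb, against 4.58% on 1AS, 3.10% on 1DS and 2.63% on 1BL. The median distance between neighbouring regions was 707 kb on 1BS, against 5.29 kb on 1AS and 4.06 kb on 1DS. Both values depend on the number of regions per Mb, which was far lower on 1BS. The arms were not compared at equal density, so these values do not show whether regions of 1BS were scattered or clustered for their number. Regions lay more often in the outer 50% of the arm, with 70.7% on 1BS (Wilson interval 61.1 to 78.8), against 69.0% on 1AS and 62.0% on 1DS. By list the share of ACRs there was 65.6% to 78.4% on 1BS. Its highest value, in vernalized leaf (62.8 to 88.6), compared with 58.7% on 1AS and 52.3% on 1DS, both below the interval, and in the other 5 lists the values of 1AS and 1DS lay within it.

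**Figure D3:**
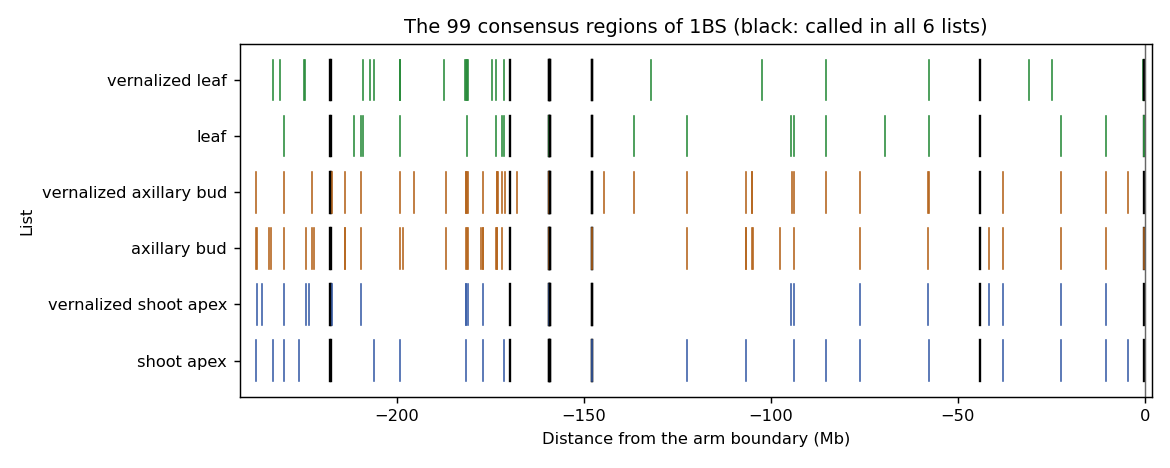
Position of the 99 consensus regions of 1BS by distance from the arm boundary in Mb, with 1 row per list and black lines for the 11 regions called in all 6 lists. Regions stand apart along the arm, and the black lines recur at the same places in every row.

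A single cluster stood out on the arm. It spanned 216 kb from 80658959 to 80875417 and held 9 of the 99 regions, 4 of which were called in all 6 lists. By list it held 4 ACRs in vernalized leaf, 7 in leaf, 6 in vernalized axillary bud, 8 in axillary bud, 6 in vernalized shoot apex and 5 in shoot apex, so all tissues contributed to it. Of its regions, the one from 80842929 to 80843179 was 250 bp wide in each of the 6 lists and the one from 80658959 to 80659313 was 350 bp wide in each. The 1 Mb window around the cluster, from 80000001 to 81000000, was the densest of the arm, with 36 ACRs summed over the lists. The next densest were the windows from 58000001 to 59000000, with 17, and from 92000001 to 93000000, with 15. The densest windows of the counterparts held 174 ACRs on 1AS, from 12000001 to 13000000, and 329 on 1DS, from 2000001 to 3000000.

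The widest region of 1BS called in all 6 lists ran from 92309004 to 92310546. It measured 1085 bp in vernalized leaf, 1350 bp in leaf, 1450 bp in vernalized axillary bud, 1543 bp in axillary bud, 1141 bp in vernalized shoot apex and 1416 bp in shoot apex. In leaf, axillary bud and shoot apex alike it was narrower in the vernalized list. A second region, from 70180578 to 70181980, measured 1389 bp in vernalized leaf, 1050 bp in leaf, 850 bp in vernalized axillary bud, 1250 bp in axillary bud, 250 bp in vernalized shoot apex and 1045 bp in shoot apex. Another, from 239776414 to 239777463, lay 0.223 Mb from the boundary and measured 421 bp in vernalized leaf, 607 bp in leaf, 950 bp in vernalized axillary bud, 1050 bp in axillary bud, 650 bp in vernalized shoot apex and 623 bp in shoot apex. The widest regions of this kind on the counterparts were 9077 bp on 1AS, from 12302890 to 12311966, and 10144 bp on 1DS, from 5436263 to 5446406.

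ACR width was compared to see whether the remaining ACRs of 1BS were of the usual size. They tended to be narrow, but the difference was small in most lists. The median width on 1BS was 350 bp in vernalized leaf, 348 bp in leaf, 350 bp in vernalized axillary bud, 250 bp in axillary bud, 350 bp in vernalized shoot apex and 396 bp in shoot apex. On 1AS it ran from 369.5 to 620.5 bp, on 1DS from 362.5 to 550 bp and on 1BL from 418 to 650 bp. The longest ACR of 1BS in any list was 1650 bp. ACRs of at least 500 bp made up 24.3% to 40.6% of those on 1BS, against 36.1% to 57.1% on 1AS and 34.3% to 56.4% on 1DS.

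The difference in median width, 1BS minus 1DS, averaged −100 ± 106 bp (SD over 6 lists) and was below 0 in 6 of 6 lists, with an adjusted p of 0.0357 in the exact sign-flip test. It was only −8 bp in shoot apex and −12.5 bp in vernalized leaf. The medians of 1BS rest on 32 to 56 ACRs, and the test takes no account of their counting error. Against 1AS the difference was −89.6 ± 143 bp, below 0 in 5 of 6 lists, and it missed the threshold (adjusted p = 0.0625, same exact test). The difference between short and long arm was also lower on 1B, by a mean of −92.7 ± 140 bp relative to 1A and −103 ± 103 bp relative to 1D, both with an adjusted p of 0.0357 in the exact test over 6 lists. The axillary bud list had the largest difference in each of these comparisons. In it the difference was −370.5 bp against 1AS and −300 bp against 1DS, and without it the mean differences were −33.4 bp against 1AS and −60.0 bp against 1DS. The 5 lists left cannot give a p under 0.0625 in this test.

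**Figure D4:**
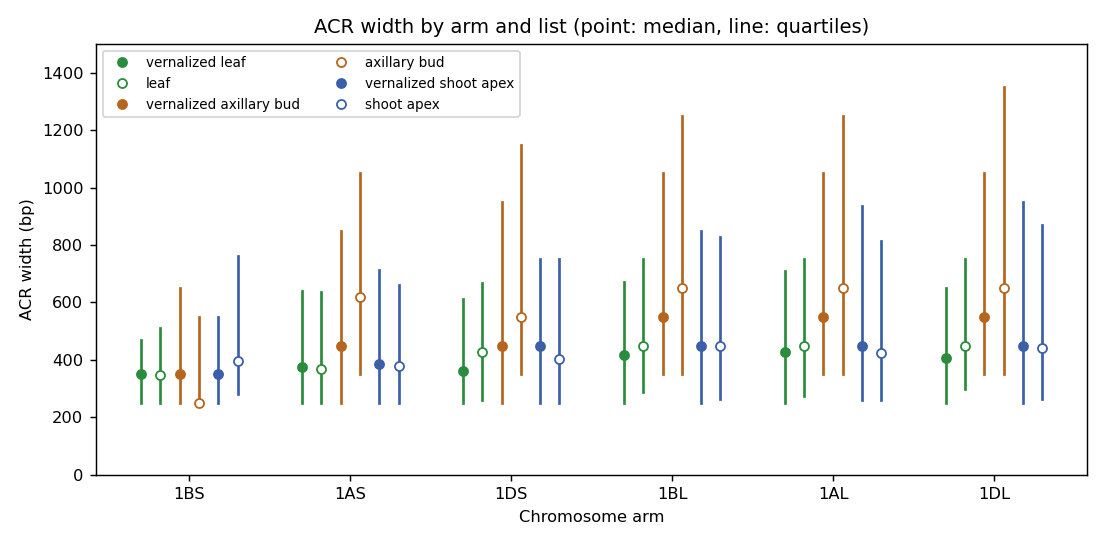
Median ACR width in bp (points) with quartiles (lines) on the 6 arms, with 1 symbol per list, filled for vernalized and open for unvernalized tissue. On 1BS the axillary bud list has its lowest median, 250 bp, while on the other arms the same list has the highest.

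Presence over the 6 lists was examined next, to ask whether regions of 1BS were shared by tissues and conditions. With ACRs of all widths, regions of 1BS were called in 1 list more often and in fewer lists on average than those of the other 5 arms. The intervals of 1BS were wide, and with ACRs of at least 500 bp its share in 1 list fell to 18.2% of 22 regions. Of the 99 regions, 11 were called in all 6 lists (11.1%, Wilson interval 6.32 to 18.8), against 10.4% on 1AS, 10.3% on 1DS, 13.0% on 1BL, 14.7% on 1AL, 13.7% on 1DL and 12.5% over all chromosomes. At the other extreme, 49 regions were called in 1 list (49.5%, 39.9 to 59.2), against 43.7% on 1AS, 45.3% on 1DS, 40.0% on 1BL, 38.2% on 1AL, 42.0% on 1DL and 40.6% over all chromosomes. The values of the other arms lay within the intervals of 1BS for both shares, except the share of 1AL in 1 list, which lay below. On average a region was called in 2.42 lists on 1BS, 2.56 on 1AS, 2.53 on 1DS, 2.76 on 1BL, 2.85 on 1AL, 2.71 on 1DL and 2.72 over all chromosomes.

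**Figure D5:**
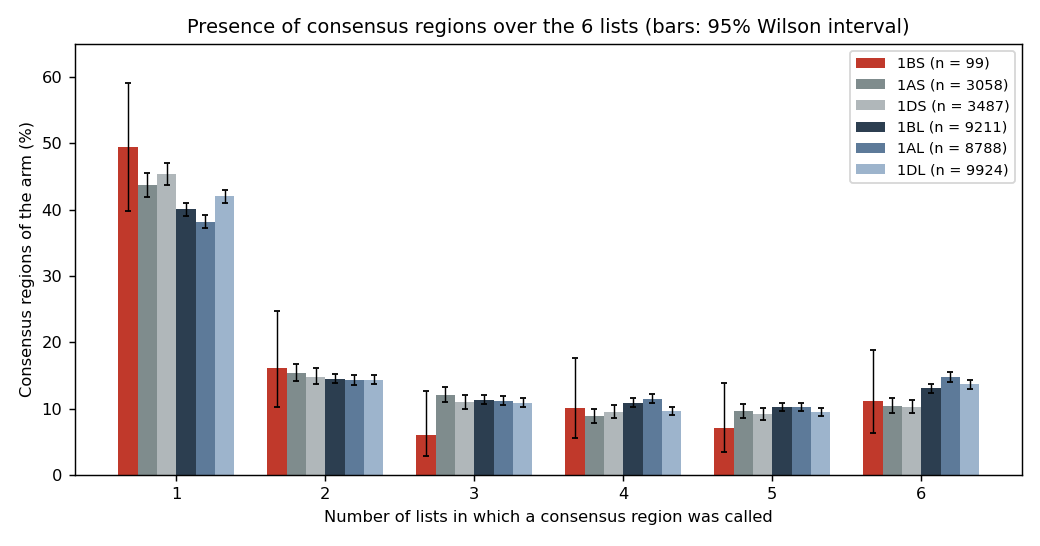
Share of consensus regions (%) called in 1 to 6 lists, for the 6 arms of homoeologous group 1, with 95% Wilson intervals as error bars. The bars of 1BS, 49.5% in 1 list and 11.1% in all 6, stand beside 43.7% and 10.4% on 1AS.

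Recurrent regions had a smaller median merged width on 1BS than elsewhere. Those called in all 6 lists had a median merged width of 809 bp on 1BS, against 1518 bp on 1AS, 1650.5 bp on 1DS and 1850 bp over all chromosomes. Over all regions the median merged width was 311 bp on 1BS, 464 bp on 1AS and 450 bp on 1DS. These widths were not tested, and the 809 bp rest on 11 regions. Merged width can also depend on how closely ACRs lie. The median distance between regions was 707 kb on 1BS, against 5.29 kb on 1AS.

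The overlap of lists was also measured in covered length, and its median was higher on 1BS than on the other arms. The Jaccard index, which is the length shared by 2 lists over their joint length, was computed for 15 pairs. On 1BS it ran from 0.226 (vernalized leaf and axillary bud) to 0.575 (vernalized axillary bud and axillary bud), with a median of 0.417. The median was 0.310 on 1AS, 0.315 on 1DS, 0.340 on 1BL, 0.351 on 1AL, 0.347 on 1DL and 0.340 over all chromosomes. The index of 1BS was lower than that of 1AS in 1 of 15 pairs and lower than that of 1DS in 1 of 15 pairs. It was lower than that of 1BL in 5, of 1AL in 5, of 1DL in 6 and of all chromosomes in 5 of 15 pairs. ACRs covered only 15.2 kb (leaf) to 26.4 kb (axillary bud) of 1BS, so a few wide regions can weigh heavily in its index. The pairs share lists and are not independent, and no test was made.

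On 1BS, as over all chromosomes, regions called in 1 list came mostly from vernalized leaf and axillary bud. Of the 49 on 1BS, 16 were from vernalized leaf, 6 from leaf, 8 from vernalized axillary bud, 14 from axillary bud, 3 from vernalized shoot apex and 2 from shoot apex. Vernalized leaf gave 32.7% (Wilson interval 21.2 to 46.6) and axillary bud 28.6% (17.8 to 42.4) of them, against 34.2% and 20.2% over all chromosomes. Shoot apex gave 4.08% on 1BS (1.13 to 13.7), against 12.7% over all chromosomes. In every list the interval of 1BS included the value over all chromosomes. The widest of these regions in each list were 597 bp in vernalized leaf (15365020 to 15365616), 250 bp in leaf (28558640 to 28558889), 350 bp in vernalized axillary bud (135012508 to 135012857), 850 bp in axillary bud (26105886 to 26106735), 450 bp in vernalized shoot apex (16550715 to 16551164) and 286 bp in shoot apex (33873266 to 33873551). The widest of this kind was 2450 bp on 1AS, in axillary bud from 3380951 to 3383400, and 3004 bp on 1DS, in vernalized leaf from 2123590 to 2126593.

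The study compared tissues before and after vernalization, and the same was done for 1BS. The number of ACRs on the arm differed little between conditions. It was 37 in vernalized leaf and 36 in leaf (a change of 2.78%, exact conditional interval −34.8 to 62.0), 49 in vernalized axillary bud and 56 in axillary bud (−12.5%, −40.2 to 28.1), and 33 in vernalized shoot apex and 32 in shoot apex (3.13%, −36.3 to 66.9). All 3 intervals included 0, so no change was detectable at these counts. With ACRs of at least 500 bp the leaf and shoot apex values were below 0 (−10% and −15.4%). In shoot apex the number was 36.0% higher after vernalization on 1AS, 10.5% on 1DS and 20.5% on 1BL, and the interval of 1BS included all of these values. With 1 list per condition and 3 tissues no test was made, since the smallest p of such a test would be 0.25.

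ACRs of 1BS called in 1 condition of a tissue were counted next. In leaf, 19 of 37 ACRs of the vernalized list had no overlap with the unvernalized list (51.4%, against 48.2% over all chromosomes), and 18 of 36 unvernalized ACRs had none with the vernalized list (50%, against 50% over all chromosomes). In axillary bud the gained ACRs numbered 13 of 49 (26.5%, against 17.9% over all chromosomes) and the lost ACRs 19 of 56 (33.9%, against 23.6%). In shoot apex 12 of 33 were gained (36.4%, against 44.2%) and 12 of 32 were lost (37.5%, against 32.5%). Without replicate lists, such differences cannot be told apart from differences in calling between lists.

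As shares of the unvernalized list, 50% of the leaf ACRs of 1BS were retained after vernalization (Wilson interval 34.5 to 65.5), against 48.3% on 1AS and 50.3% on 1DS. In axillary bud 66.1% were retained (53.0 to 77.1), against 72.4% on 1AS and 75.2% on 1DS. In shoot apex 62.5% were retained (45.3 to 77.1), against 66.6% on 1AS and 60.1% on 1DS. Every value of 1AS and 1DS lay inside the interval of 1BS. Over all chromosomes the retained shares were 49.99% for leaf, 67.5% for shoot apex and 76.4% for axillary bud, so the tissues stood in the same order, although the intervals of 1BS overlapped between tissues.

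Sites were then taken at which the list of the opposite condition had nothing within 1 kb. On 1BS the widest gained in leaf lay from 58552871 to 58553797 (927 bp) and was present in all 4 lists of axillary bud and shoot apex. The widest lost in leaf lay from 117710695 to 117711344 (650 bp), next to the longest stretch without ACRs, and overlapped both axillary bud lists and shoot apex. In axillary bud the widest gained lay from 154784950 to 154785599 (650 bp) and the widest lost from 62452697 to 62453146 (450 bp). In shoot apex the widest gained lay from 16550715 to 16551164 (450 bp) and the widest lost from 154784720 to 154785626 (907 bp). This last site was therefore gained in axillary bud and lost in shoot apex, and it was present in both leaf lists. On the counterpart arms the widest sites were longer, with 2950 bp gained in shoot apex (10150093 to 10153042) and 3050 bp lost in axillary bud (179534859 to 179537908) on 1AS, and 2635 bp gained (163419363 to 163421997) and 3197 bp lost (86211486 to 86214682) in leaf on 1DS.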

How the data were processed

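The authors trimmed reads with fastp 0.21.0, aligned them to IWGSC RefSeq v1.0 with Bowtie2 2.3.5.1, filtered them on mapping quality with SAMtools 1.3.1, removed duplicates with Picard 2.16.0 and called peaks with MACS2 2.2.6. They cut peaks into overlapping bins, kept bins dense in Tn5 insertions and merged near ones with bedtools. The paper also states that peaks overlapping input and matching chloroplast DNA were removed. The mapping filter removes reads that align to several places. Widths fell on the steps of such bins for 95.6% of ACRs in vernalized axillary bud and 94.6% in axillary bud. The share was 77.6% in vernalized shoot apex, 42.6% in vernalized leaf, 33.9% in leaf and 12.9% in shoot apex. The cause was not tested, and comparisons of width and presence between lists carry this difference. The deposited lists hold chromosome, start and end of each ACR, without score or count. Whether replicates were pooled is not given in the sources used here.

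Lists were used whole, with starts written 1-based. The end of a chromosome was the end of its last ACR in any list (14065.3 Mb over 21 chromosomes). Density ratios and median widths were tested by two-sided exact sign-flip permutation over the 6 lists (64 patterns), adjusted over 8 results with Benjamini-Hochberg at a threshold of 0.05. Shares have Wilson intervals, single counts have exact Poisson intervals and ratios of counts have exact conditional intervals. Functions were tested on simulated data.

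Named sites were the 3 widest regions of 1BS called in all 6 lists, the widest called in 1 list for each list, the 3 densest 1 Mb windows, the 3 longest stretches without ACRs, and, by tissue, the widest gained and lost ACR more than 1 kb from any ACR of the opposite condition. On 1AS and 1DS only the first of each kind was named. The cluster, its regions of constant width and the windows at the boundary were chosen after their values were seen. The arms, boundaries and sites were chosen with earlier results of these data known. Alternatives were other boundaries, ACRs of at least 500 bp, lists of equal size (126351 widest ACRs), joining of ACRs up to 1 kb or merging up to 200 bp apart, covered length, the outer 50% of arms, mean width, overlap of 50% and ends of 20 and 100 Mb. The gene table at hand is of another assembly, so genes and sequences were not used here. Python 3.11.15, numpy 2.4.6, scipy 1.17.1 and matplotlib 3.10.9 were used.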

Additional observations from a re-analysis of the deposited data

Results flagged for a closer look

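The change in ACR number after vernalization had unlike signs in different tissues on 5 of the 6 arms. With 1 list per condition the difference between tissues was not tested. On 1BS the number changed by −12.5% in axillary bud, against 2.78% in leaf and 3.13% in shoot apex, with counts of 32 to 56 behind these values and intervals that all included 0. On 1AS it changed by 36.0% in shoot apex, against −4.44% for leaf (−11.5 to 3.13) and −3.94% for axillary bud (−9.98 to 2.52). The 1DS arm gained ACRs in leaf (12.3%) and shoot apex (10.5%), against −3.28% in axillary bud (−9.16 to 2.99). For 1BL the shoot apex value was 20.5%, against −1.99% for leaf (−6.19 to 2.41) and −0.196% for axillary bud (−3.82 to 3.57). For 1AL the shoot apex value was 18.5%, against −5.73% for leaf and 0.254% for axillary bud. Only on 1AL did intervals lie on opposite sides of 0, with −9.79 to −1.50 for leaf and 13.8 to 23.4 for shoot apex.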

How the results depend on the processing

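Of 74 alternatives, not counting those that left out a list, 68 kept the direction and side of the threshold, or moved a value by less than its counting interval, and none reversed a result that had passed a test. All 28 alternatives for density kept their call, with mean log2 ratios of −5.73 to −4.45 for 1BS over 1AS and −6.35 to −4.96 for 1BS over 1DS (adjusted p 0.03125 to 0.0417, exact sign-flip test). The ends nearest to 0 came from boundaries 10 Mb further into the long arm, where counts on 1BS became 48 to 114. Width depended more on the settings. Boundaries 10 Mb nearer the short arm end gave −79.6 bp for the short minus long arm of 1B minus 1A (adjusted p = 0.0714 in the exact test), and boundaries 10 Mb further into the long arm gave −56.9 bp for 1BS minus 1DS (adjusted p = 0.0625), so neither passed the threshold there. Against 1AS, joining ACRs up to 1 kb apart gave −182 bp and the mean in place of the median −149 bp, and both then passed the threshold (adjusted p = 0.03125 in the exact test). Leaving out the axillary bud list, an alternative chosen after seeing the data, gave −60.0 bp for 1BS minus 1DS, −37.1 bp for the short minus long arm of 1B minus 1A and −64.1 bp for that of 1B minus 1D. All 3 lost their call (exact p = 0.0625), the smallest p that 5 lists allow. With ACRs of at least 500 bp, 18.2% of the 22 regions of 1BS were called in 1 list, and 82.4% of its 17 axillary bud ACRs were retained. These shares are not given for other arms at this width, so they cannot be set against the values above. The change in ACR number on 1BS, whose interval included 0, turned to −10% in leaf and −15.4% in shoot apex with ACRs of at least 500 bp, and covered length gave −12.4% in shoot apex. The cause of these shifts was not tested. Counts of 32 to 56 ACRs per list limit every share on 1BS. No paired analysis was possible because each group had 1 list, so no replicate numbers could be paired between groups. Arms were compared within each list.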
